A study of Mus musculus with 43 samples.

Results

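Zscan4a to Zscan4f are 6 near-identical members of the mouse Zscan4 family in 1 cluster on chromosome 7, where the annotation also holds Zscan4-ps1, Zscan4-ps2 and Zscan4-ps3, which were not analysed here. The 6 copies were taken by symbol from 3 tables of gene expression in full-grown oocytes and morulae, and were selected on their RNA levels, being above the matching controls in PRC1 catalytic-dead (PRC1-CD) oocytes and below them in Pcgf1/6 double-knockout (DKO) oocytes. Values were found for 5 of the 6 copies, of 35815 to 35842 genes in each table, and Zscan4e was not analysed here. The levels in those pairs of groups are therefore given as a description without a test, whereas the comparisons with triple-knockout (TKO) oocytes and those among morulae were tested. The TKO tests reuse the DKO or WT libraries of the choice, so their p-values are not independent of it.

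The study measured RNA in 43 libraries of 8 groups. PRC1-CD full-grown oocytes carried a catalytically dead PRC1 and were set against PRC1-WT oocytes (n = 2 each, 10 pooled oocytes per library). A separate set held Pcgf1/6/Mll2 TKO, Pcgf1/6 DKO and WT full-grown oocytes (n = 3 each). The third set held morulae that were maternal TKO (matTKO) or maternal DKO (matDKO) for the same genes, and WT morulae (n = 10 each). The alleles, the Cre driver, the paternal genotype, the age of the females and the number of oocytes or embryos behind the libraries of the other 2 sets are not given in the sources used here, and neither is whether replicates came from separate animals, so the spread may be technical.

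PRC1 is the Polycomb complex that attaches ubiquitin to histone H2A, some of whose variants contain Pcgf1 or Pcgf6. Mll2, listed as Kmt2b, is a methyltransferase of histone H3 lysine 4. Zscan4 proteins carry a SCAN domain and zinc fingers. In the mouse they are known for a burst of expression in the 2-cell embryo and in a rare, fluctuating subset of embryonic stem cells, where Zscan4 has been linked to telomere elongation and where the transcription factor Dux acts upstream of it. Dppa2 and Dppa4 act upstream of Dux in stem cells, and repressors of this programme include the Pcgf6-containing form of PRC1.

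On the GRCm38 annotation of GENCODE the 6 copies lie within 608.077 kb. Zscan4a, annotated as an unprocessed pseudogene, is at chr7:10794242-10799057 on the minus strand. Zscan4b is at chr7:10900740-10905050 (minus), Zscan4c at chr7:11005745-11010547 (plus), Zscan4d at chr7:11161374-11166159 (minus), Zscan4e at chr7:11306378-11310682 (minus) and Zscan4f at chr7:11397915-11402318 (plus). The longest open coding sequences of Zscan4c, Zscan4d and Zscan4f are 1518 bases long, and those of Zscan4b and Zscan4e 1515 bases. Aligned pairwise, the annotated transcripts of the 6 copies were 96.6% to 99.7% identical, with Zscan4c and Zscan4f at 99.6%. Of all 50-base windows of a transcript, the share also found in another annotated Zscan4 transcript was 95.3% for Zscan4f, 90.3% for Zscan4b, 85.5% for Zscan4c, 63.6% for Zscan4a and 49.6% for Zscan4d. Reads of one copy can thus be counted for another, most of all for Zscan4f, so the values of single copies are uncertain and the summed value of the family is given beside them.

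The promoters of 4 copies were held in the RefSeq promoter table of GRCm38.p6, 250 bases before to 50 bases after the annotated start. They are shown because they share almost all of their bases while the RNA levels of the copies differ. The capitals mark the sequence TATAAA, searched on both strands with no overlap with another motif searched.
Zscan4b: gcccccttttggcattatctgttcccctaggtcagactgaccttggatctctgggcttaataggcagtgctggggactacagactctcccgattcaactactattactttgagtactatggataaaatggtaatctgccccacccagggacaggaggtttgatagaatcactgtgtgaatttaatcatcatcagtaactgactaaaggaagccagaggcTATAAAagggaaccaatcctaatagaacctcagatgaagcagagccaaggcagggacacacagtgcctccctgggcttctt
Zscan4c: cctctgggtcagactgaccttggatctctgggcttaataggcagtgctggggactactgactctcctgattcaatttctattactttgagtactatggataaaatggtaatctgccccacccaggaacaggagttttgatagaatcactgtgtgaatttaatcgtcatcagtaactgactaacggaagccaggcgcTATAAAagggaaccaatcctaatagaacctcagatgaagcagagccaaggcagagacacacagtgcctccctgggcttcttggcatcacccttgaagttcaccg
Zscan4d: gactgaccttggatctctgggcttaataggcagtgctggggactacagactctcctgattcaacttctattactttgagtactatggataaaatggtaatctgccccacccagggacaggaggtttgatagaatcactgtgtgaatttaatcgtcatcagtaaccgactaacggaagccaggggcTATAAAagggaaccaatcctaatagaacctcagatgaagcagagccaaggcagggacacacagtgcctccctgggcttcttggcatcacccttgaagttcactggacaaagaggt
Zscan4f: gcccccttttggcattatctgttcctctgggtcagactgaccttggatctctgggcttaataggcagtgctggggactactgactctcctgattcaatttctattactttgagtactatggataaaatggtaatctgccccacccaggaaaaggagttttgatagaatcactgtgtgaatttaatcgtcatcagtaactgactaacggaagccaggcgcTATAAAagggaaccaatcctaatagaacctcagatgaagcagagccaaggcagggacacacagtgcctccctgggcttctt
These windows lie at chr7:10905001-10905300 (minus strand) for Zscan4b, chr7:11005495-11005794 (plus) for Zscan4c, chr7:11166099-11166398 (minus) for Zscan4d and chr7:11397665-11397964 (plus) for Zscan4f. TATAAA occurred in 4 of 4 on the gene's own strand, against 8.32% of the 32851 promoters in the table. Its first base lay 31 bases before the annotated start in Zscan4b and Zscan4f, 54 before it in Zscan4c and 65 before it in Zscan4d, so the annotated starts differ in where they fall on the shared sequence. Without gaps, Zscan4c and Zscan4f differed at 2 of 277 aligned bases (99.3% identity), Zscan4d was 97.2% to 97.7% identical to each of the other 3, and Zscan4b and Zscan4c were the least alike at 95.3%. The 4 promoters held 1 to 4 CpG dinucleotides, against a median of 7 over all promoters, and their GC content was 46.3% to 47.7%, against a median of 52.7%. The palindromic E-box CACGTG was in 0 of 4 (7.15% of all promoters), and the E2F sequence TTCCCGC in 0 of 4 on either strand (4.6%). These letters were not in these windows, which says nothing of binding elsewhere.

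In full-grown oocytes of the control groups the family was expressed at a low to moderate level. Levels are in RPKM, reads scaled to transcript length and to library size, and the median level of the tested genes was 6.875 RPKM in PRC1-WT and 6.99 RPKM in WT oocytes. The 5 copies summed to 31.0 and 33.2 RPKM in the PRC1-WT libraries and to between 21.4 and 24.0 RPKM in the WT libraries of the other set, which was normalised separately. Zscan4f and Zscan4d gave most of this, with 46.0% ± 4.5 and 33.5% ± 1.9 of the sum in WT oocytes (SD, n = 3). In WT oocytes Zscan4f (9.04 to 12.2 RPKM) lay above Zscan4d (6.83 to 8.54 RPKM) in every library pairing, whereas Zscan4c (1.91 to 2.75 RPKM) and Zscan4a (1.31 to 2.7 RPKM) overlapped. Zscan4b was near the floor, at 0 to 0.30 RPKM. Because libraries hold bulk RNA, fewer cells of a type and less RNA per cell cannot be told apart. The libraries held oocyte RNA as labelled, with 13 of 13 oocyte markers at a mean of 1 RPKM or more in each oocyte group. All 12 morula markers reached a mean of 1 in each morula group, but 6 to 8 of them also did so in the oocyte groups. One PRC1-CD library, replicate 2, has a tissue label of embryo, although title and stage both give an oocyte. The 13 oocyte markers summed to 16500 and 17960 RPKM in the PRC1-CD libraries and to 13070 and 17970 RPKM in the PRC1-WT libraries. In morula libraries they summed to at most 3879 TPM. The 12 morula markers summed to 1763 and 1814 RPKM in the PRC1-CD libraries and to 944 and 1625 RPKM in the PRC1-WT libraries.

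**Figure D1:**
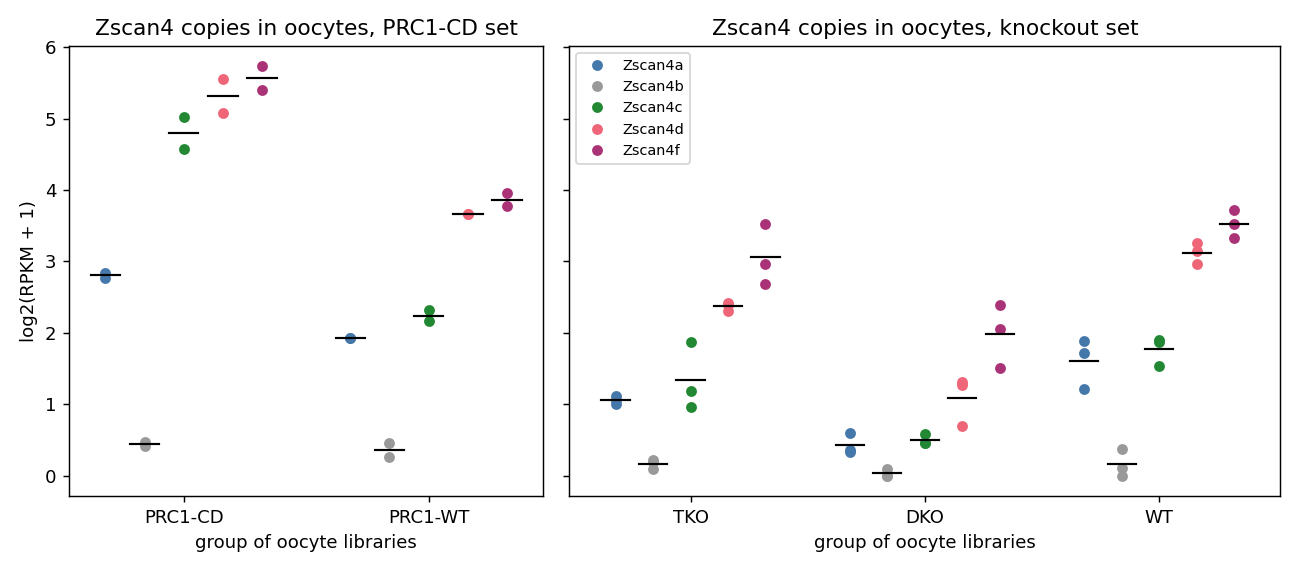
Level of each Zscan4 copy in oocytes as log2(RPKM + 1), with 1 point per library and a line at the group mean, for the PRC1-CD set on the left and the knockout set on the right. Zscan4c, Zscan4d and Zscan4f stand highest in PRC1-CD and lowest in DKO oocytes, TKO oocytes lie between DKO and WT for Zscan4d, and Zscan4b stays near 0 in all groups.

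In PRC1-CD oocytes the family was several-fold above its control. The summed level was 117 and 122 RPKM in the PRC1-CD libraries, against 31.0 and 33.2 RPKM in the PRC1-WT libraries, a ratio of the means of 3.72. Both PRC1-CD libraries were above both PRC1-WT libraries, which was also so for 36.1% of all tested genes. Zscan4c, the copy described as predominant in stem cells, had 22.8 and 31.5 RPKM in PRC1-CD against 3.98 and 3.47 RPKM in PRC1-WT oocytes. Zscan4d, the copy described as predominant in 2-cell embryos, had 46.2 and 32.7 RPKM in PRC1-CD against 11.7 and 11.7 RPKM in PRC1-WT oocytes. The order of the replicates was not shared, since Zscan4d was higher in replicate 1 of PRC1-CD and Zscan4c and Zscan4f in replicate 2. Zscan4f had 41.1 and 52.1 RPKM in PRC1-CD against 14.5 and 12.7 RPKM in PRC1-WT oocytes. The annotated pseudogene Zscan4a had 6.17 and 5.82 RPKM in PRC1-CD against 2.81 and 2.82 RPKM in PRC1-WT oocytes. Zscan4b, with 0.39 and 0.34 RPKM in PRC1-CD against 0.20 and 0.37 RPKM in PRC1-WT oocytes, overlapped and was too low to be tested.

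On the log2(RPKM + 1) scale the change was 2.56 ± 0.21 for Zscan4c, 1.70 ± 0.18 for Zscan4f, 1.65 ± 0.20 for Zscan4d and 0.87 ± 0.17 for Zscan4a (SE), with a median of 1.67 over the 4 tested copies and of 0.04 over all 13376 genes. Because the choice of the family used this comparison, no test is given for it; 17.3% of all tested genes were called higher, all 4 copies among them, and nothing is read from that count. The make-up of the sum differed between the groups. Zscan4c took 19.6% and 25.7% of the summed level in PRC1-CD libraries, against 11.2% and 12.0% in PRC1-WT libraries. Its promoter window differed from that of Zscan4f at 2 of 277 aligned bases, and their transcripts were 99.6% identical. How shared reads were split between these copies was not tested. Zscan4f took 35.3% and 42.5% in PRC1-CD and 40.9% and 43.7% in PRC1-WT libraries, which overlapped.

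**Figure D2:**
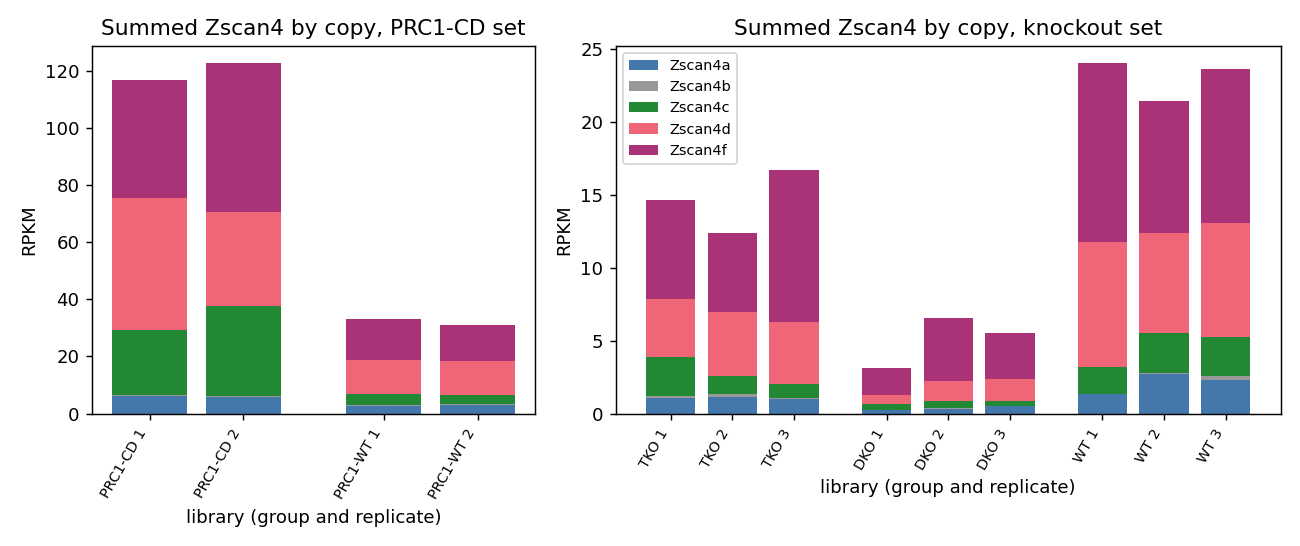
Summed Zscan4 level of each oocyte library in RPKM, stacked by copy, with separate axes for the PRC1-CD set on the left and the knockout set on the right. The PRC1-CD sums are 117 and 122 RPKM and the PRC1-WT sums 31.0 and 33.2 RPKM, while TKO, DKO and WT libraries average 14.6, 5.05 and 23.0 RPKM.

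Some markers of granulosa cells, the cells around the oocyte, were also higher in PRC1-CD oocytes. The summed level over 20 markers was 104 and 120 RPKM in PRC1-CD libraries, against 36.2 and 38.5 RPKM in PRC1-WT libraries. A mean of at least 1 RPKM was reached by 8 of 20 markers in PRC1-CD and 5 of 20 in PRC1-WT oocytes. Of 8 tested markers 6 rose by limma, where 17.3% of all genes rose, and 3 of these 6 passed the filter through PRC1-CD oocytes alone. Among them were Krt8, which is also a morula marker (39.9 ± 6.17 RPKM in PRC1-CD against 1.43 ± 0.83 RPKM in PRC1-WT oocytes, adjusted p = 0.000165), and Fshr, the receptor of follicle-stimulating hormone (15.3 ± 4.63 RPKM against 0.55 ± 0.07 RPKM, adjusted p = 0.000204). Cyp19a1, the marker with the highest level in PRC1-WT oocytes, had 17.2 ± 2.0 RPKM in PRC1-CD against 17.2 ± 1.3 RPKM in PRC1-WT oocytes. The defining marker Foxl2 was at 0.10 RPKM or less in PRC1-CD and listed at 0 in PRC1-WT libraries, and Amh was listed at 0 in PRC1-CD and at 0.05 RPKM or less in PRC1-WT libraries. The granulosa sum was 46.0 to 59.1 RPKM in TKO, 34.7 to 46.2 RPKM in DKO and 31.5 to 35.5 RPKM in WT oocytes. In each of TKO and DKO against WT oocytes, where the Zscan4 sum was below WT, 4 of 8 tested markers rose and 1 fell. Of the 4 that rose, 3 in TKO and 2 in DKO had a WT mean under 1 RPKM. The counts of markers that rose are thus partly set by the filter. Of all genes 31.2% rose and 20.1% fell in TKO, and 17.5% and 11.3% in DKO oocytes. After quantile normalization 4 rose and 2 fell in TKO, 2 rose and 2 fell in DKO, and 4 of 8 rose in PRC1-CD oocytes. After median-ratio scaling 3 of 7 rose and 1 fell in each of TKO and DKO. Krt8 was at 13.0 ± 4.90 RPKM in TKO, 8.30 ± 3.68 RPKM in DKO and 0.247 ± 0.245 RPKM in WT oocytes (SD, n = 3 each). Cyp19a1 was lower, at 16.2 RPKM in TKO and 15.1 RPKM in DKO against 23.3 RPKM in WT oocytes. The part of granulosa cells in the Zscan4 levels was not tested.

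In DKO oocytes the family lay in the opposite direction. The summed level was 3.09, 6.52 and 5.53 RPKM in the DKO libraries, against 24.0, 21.4 and 23.6 RPKM in the WT libraries, and the WT mean was 4.56-fold the DKO mean. Every DKO library was below every WT library. Zscan4d had 0.62, 1.41 and 1.48 RPKM in DKO against 8.54, 6.83 and 7.82 RPKM in WT oocytes, the largest log2 change of the 4 tested copies (-2.03 ± 0.16). Zscan4f had 1.84, 4.26 and 3.16 RPKM in DKO against 12.2, 9.04 and 10.6 RPKM in WT oocytes (-1.54 ± 0.25). Zscan4c and Zscan4a were at 0.51 RPKM or less in every DKO library and at 1.31 RPKM or more in every WT library, with log2 changes of -1.27 and -1.18. The changes of such low copies depend on the pseudocount, and with 0.1 in place of 1 they were -2.29 for Zscan4c and -2.27 for Zscan4a, larger than that of Zscan4f (-1.81). Zscan4b was listed at 0 in 2 of 3 DKO libraries and in 1 of 3 WT libraries. The median change was -1.41 over the 4 tested copies and 0.03 over all 12873 genes. Of all tested genes, 11.3% were called lower in DKO oocytes, the 4 copies included, and 22.1% had DKO libraries below all WT libraries. The choice of the family used this comparison too, so nothing is read from those counts. Zscan4f made up 57.1% to 65.3% of the sum in DKO libraries, against 42.2% to 51.0% in WT libraries, and Zscan4d 20.1% to 26.8% in DKO against 31.9% to 35.6% in WT libraries.

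Of 12428 genes tested in both oocyte sets, 63 (0.507%) were called with opposite signs, above PRC1-WT in PRC1-CD and below WT in DKO oocytes, and the 4 tested Zscan4 copies were among them by the way they were chosen.

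TKO oocytes, which lack Mll2 in addition to Pcgf1 and Pcgf6, had a Zscan4 level between those of DKO and WT oocytes. The summed level was 14.7, 12.4 and 16.7 RPKM in TKO libraries, with a mean of 14.6 ± 2.16 RPKM, against 5.05 ± 1.77 RPKM in DKO and 23.0 ± 1.40 RPKM in WT oocytes (SD, n = 3 each). The 3 groups did not overlap, so the order of the sum was DKO, TKO, WT from low to high. That DKO lay below WT was set by the choice of the family. Of all tested genes, 30.1% had TKO libraries above all DKO libraries and 23.5% had TKO libraries below all WT libraries. The knockout was seen in Pcgf1, with 12.2 RPKM in TKO and 12.3 RPKM in DKO against 1108 RPKM in WT oocytes, and Kmt2b had 1.14 RPKM in TKO, 3.90 RPKM in DKO and 4.85 RPKM in WT oocytes. Pcgf6 kept 72.2 RPKM in TKO and 57.1 RPKM in DKO against 153.8 RPKM in WT oocytes, and the deleted part of the gene is not given.

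Against DKO oocytes, all 4 tested copies were higher in TKO oocytes by limma with Benjamini-Hochberg adjustment over 12873 genes. Zscan4d had 3.95, 4.37 and 4.24 RPKM in TKO against 0.62, 1.41 and 1.48 RPKM in DKO oocytes, and rose by 1.28 ± 0.16 on the log2 scale (adjusted p = 0.000193). Zscan4f had 6.82, 5.44 and 10.5 RPKM in TKO against 1.84, 4.26 and 3.16 RPKM in DKO oocytes (1.07 ± 0.25, adjusted p = 0.00562). Every TKO library was above every DKO library for both copies. Zscan4c had 2.67, 1.27 and 0.94 RPKM in TKO against 0.37, 0.50 and 0.38 RPKM in DKO oocytes (0.84 ± 0.21, adjusted p = 0.00912). Zscan4a had 1.09, 1.16 and 1.01 RPKM in TKO against 0.26, 0.28 and 0.51 RPKM in DKO oocytes (0.63 ± 0.17, adjusted p = 0.0120). With a pseudocount of 0.1 the changes of Zscan4c and Zscan4a were 1.62 and 1.44, and all 4 copies were called. For these copies as well the groups were apart, in Zscan4c with a spread in TKO oocytes of 0.92 RPKM (SD). The background was broad, since 26.8% of all tested genes were called higher in TKO than in DKO oocytes and 30.1% had TKO libraries above all DKO libraries. The median change was 0.95 over the 4 copies and 0.04 over all genes. The DKO libraries of this comparison are those whose low level chose the family. That choice favours a higher value in TKO than in DKO oocytes, so no support is drawn from these p-values.

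**Figure D3:**
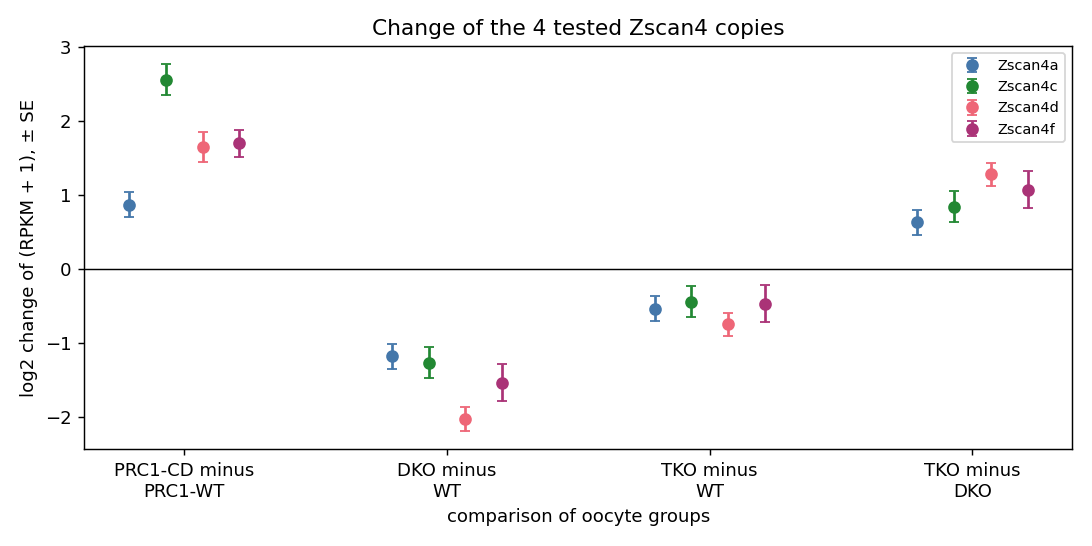
Change of the 4 tested Zscan4 copies on the log2(RPKM + 1) scale in 4 comparisons of oocyte groups, with bars of 1 SE from limma. All 4 copies lie above 0 in PRC1-CD minus PRC1-WT and in TKO minus DKO and below 0 in DKO minus WT and TKO minus WT, and in TKO minus WT they range between -0.75 and -0.44.

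Against WT oocytes, 2 of the 4 tested copies fell in TKO oocytes and 0 rose, where 20.1% of all tested genes were called lower. Zscan4d had 3.95, 4.37 and 4.24 RPKM in TKO against 8.54, 6.83 and 7.82 RPKM in WT oocytes, and changed by -0.75 ± 0.16 (limma, adjusted p = 0.00377). Zscan4a had 1.09, 1.16 and 1.01 RPKM in TKO against 1.31, 2.7 and 2.29 RPKM in WT oocytes (-0.54 ± 0.17, adjusted p = 0.0229), and every TKO library was below every WT library for both copies, as for 23.5% of all tested genes. The call of Zscan4a was lost without WT replicate 2 (adjusted p = 0.0902), without WT replicate 3 (0.0782) and without TKO replicate 3 (0.0619). Zscan4f (-0.47 ± 0.25, adjusted p = 0.140) and Zscan4c (-0.44 ± 0.21, adjusted p = 0.114) were not called with all libraries, and their TKO and WT libraries overlapped. The limma calls of these 2 copies turned on single TKO libraries, since Zscan4c was called without TKO replicate 1 (adjusted p = 0.00471) and Zscan4f without TKO replicate 3 (0.0399). Zscan4b, at 0.14, 0.17 and 0.07 RPKM in TKO against 0, 0.08 and 0.30 RPKM in WT oocytes, was not tested. The median change was -0.51 over the 4 copies and 0.09 over all genes. This comparison shares its WT libraries with the one that chose the family. That choice favours a lower value in TKO than in WT oocytes, so no support is drawn from these p-values either.

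In morulae the family was listed at 0 in most libraries of the mutant groups, and it was not called changed. Levels of morulae are in TPM, which corrects for transcript length and gives every library an equal total, and the median tested gene stood at 9.21 TPM in WT. The summed level was 0, 0 and 2.56 TPM (lowest, median and highest) in matTKO, 0, 0 and 10.2 TPM in matDKO, and 0, 3.40 and 17.2 TPM in WT morulae. It was above 0 in 3 of 10 matTKO, 3 of 10 matDKO and 8 of 10 WT libraries. At 1 TPM or more it stood in 2 matTKO, 3 matDKO and 6 WT libraries. The groups overlapped in each comparison of the sum. Where the family was present, several copies were above 0 together, with 3 copies in 2 of the 3 matTKO libraries, 3 or 4 copies in each of the 3 matDKO libraries, and 3 to 5 copies in 7 of the 8 WT libraries.

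The leading copy varied between single morula libraries. In WT replicate 2, the highest sum, Zscan4d had 7.37, Zscan4f 6.41 and Zscan4c 3.07 TPM. WT replicate 4 instead had 7.14 TPM of Zscan4f, 2.30 TPM of Zscan4a and 0.11 TPM of Zscan4d. In matDKO replicate 5, Zscan4c led with 5.28 TPM, whereas Zscan4f led in matDKO replicate 9 with 5.81 TPM. No fixed make-up of the sum was therefore seen among these libraries, where reads shared by the copies may be split differently.

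Zscan4f, the copy with the highest mean in each morula group, had 0, 0 and 1.38 TPM in matTKO, 0, 0 and 5.81 TPM in matDKO and 0, 0.505 and 7.14 TPM in WT morulae (lowest, median and highest). Zscan4d had 0, 0 and 1.21 TPM in matTKO, 0, 0 and 2.79 TPM in matDKO and 0, 0.14 and 7.37 TPM in WT morulae. Only these 2 copies were tested, and both passed the filter through WT morulae alone, with means of 0.254 TPM in matTKO, 0.88 TPM in matDKO and 2.26 TPM in WT for Zscan4f and of 0.127 TPM in matTKO, 0.62 TPM in matDKO and 1.09 TPM in WT for Zscan4d. The filter thus favours a lower value in the mutants, and no support is drawn from these changes. By limma 0 of 2 were called in each of the 3 comparisons, where 0.567% of 13056 genes were called in matTKO against WT, 1.74% in matDKO against WT and 0.0689% in matTKO against matDKO. Zscan4f changed by -0.94 ± 0.42 in matTKO against WT morulae (limma, adjusted p = 0.325, unadjusted p = 0.0301), the only one of the 6 tests with an unadjusted p under 0.05. A permutation test of that copy alone over the 20 libraries gave an unadjusted, two-sided p of 0.0493. Zscan4d changed by -0.51 ± 0.33 in the same comparison (adjusted p = 0.526). In matDKO against WT morulae Zscan4f changed by -0.66 ± 0.42 (adjusted p = 0.416) and Zscan4d by -0.16 ± 0.33 (0.830). In matTKO against matDKO morulae Zscan4f changed by -0.28 ± 0.42 (adjusted p = 0.964) and Zscan4d by -0.35 ± 0.33 (0.939). The median change of the 2 copies was -0.73 in matTKO and -0.41 in matDKO against WT, against -0.06 and -0.09 over all genes. Zscan4a was listed at 0 in 9 of 10 matTKO, 10 of 10 matDKO and 6 of 10 WT libraries, Zscan4b in 9, 8 and 6, and Zscan4c in 9, 8 and 4.

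**Figure D4:**
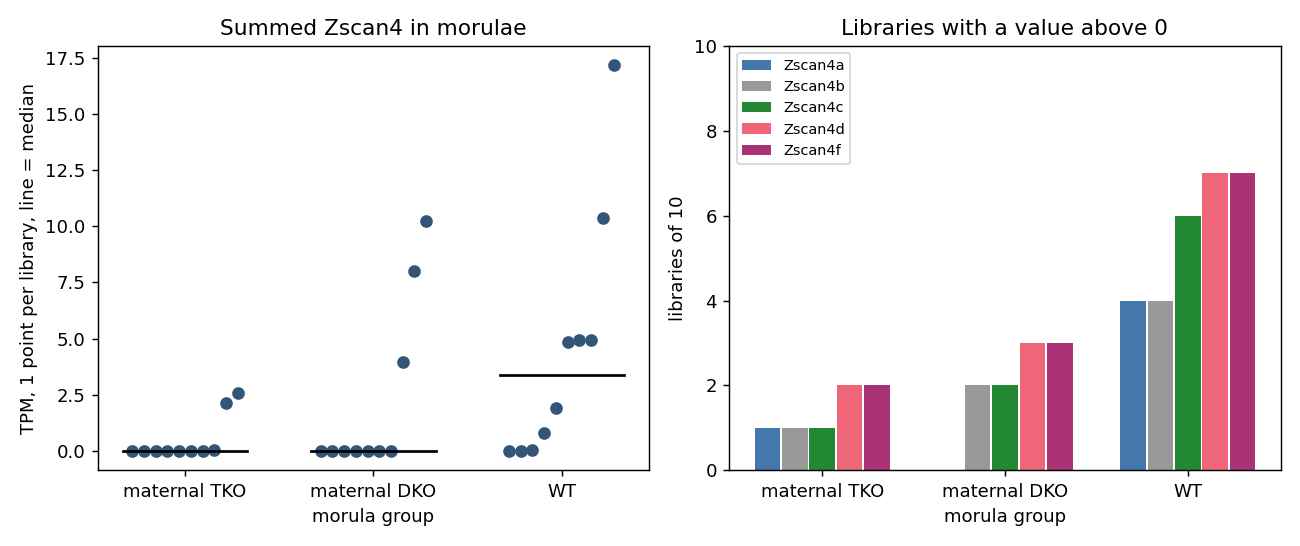
Summed Zscan4 level of each morula library in TPM with a line at the group median on the left, and the number of 10 libraries with a value above 0 for each copy on the right. The sum is above 0 in 3 matTKO (maternal TKO), 3 matDKO (maternal DKO) and 8 WT libraries, and the groups overlap.

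Other genes of the 2-cell programme moved in both directions. Of 55 listed genes, with the Zscan4 copies left out, 23 were tested in the PRC1-CD set. Of these, 9 rose and 3 fell in PRC1-CD oocytes (median change 0.63), where 17.3% of all genes rose and 5.61% fell. The filter took in 9 of the 23 genes through PRC1-CD oocytes alone, their PRC1-WT mean being under 1 RPKM, and 7 of the 9 that rose were among these, so the count of genes that rose is partly set by the filter. The balance of calls also depended on the scaling, with 2309 genes higher and 750 lower in PRC1-CD oocytes with the values as deposited, 1608 and 1538 after quantile normalization and 2055 and 1265 after median-ratio scaling. In the 2-cell list 4 rose and 3 fell after quantile normalization, and 9 rose and 5 fell after median-ratio scaling. The 4 genes of the list with the largest changes were all under 1 RPKM in PRC1-WT oocytes. Gm6763 had 3.01 ± 2.52 RPKM in PRC1-CD against 0.055 ± 0.007 RPKM in PRC1-WT oocytes (limma, adjusted p = 0.0185). Usp17lb, of the Usp17-like family of deubiquitinases, had 2.695 ± 0.63 against 0.245 ± 0.28 RPKM (adjusted p = 0.00273), and Gm2022 and B020031M17Rik also rose, by 1.5 ± 0.19 and 1.34 ± 0.18 (SD of levels, n = 2 each, and SE of log2 changes). In DKO oocytes 4 of 15 tested genes rose and 0 fell (17.5% and 11.3% of all genes), with 3 lower at an unadjusted p under 0.05, and 1 and 2 fell after quantile normalization and median-ratio scaling. Over all genes DKO against WT had 2251 higher and 1450 lower, 1857 and 2065 after quantile normalization, and 1893 and 2100 after median-ratio scaling, where the balance turned. Tcstv1 had 184 ± 3.4 RPKM in DKO against 138 ± 19.8 RPKM in WT oocytes (0.42 ± 0.10, adjusted p = 0.00901), and Tcstv3, which with Tcstv1 belongs to a small family expressed in 2-cell embryos, had 52.9 ± 1.6 in DKO against 34.1 ± 2.0 RPKM in WT oocytes (0.62 ± 0.11, adjusted p = 0.00192). Zfp809, a KRAB zinc finger repressor of proviruses, had 6.20 ± 1.43 RPKM in DKO against 2.87 ± 0.10 RPKM in WT oocytes (adjusted p = 0.00167). On so few genes these counts are read against the shares of all genes only. In TKO against WT oocytes 5 of 15 rose and 4 fell (31.2% and 20.1% of all genes), and in TKO against DKO oocytes 3 rose and 6 fell (26.8% and 21.8% of all genes), with Tcstv3 at 28.2 ± 4.6 RPKM in TKO against 52.9 ± 1.6 RPKM in DKO oocytes (-0.90 ± 0.11, adjusted p = 0.000121). Over all genes TKO against WT had 4013 higher and 2592 lower, 3244 and 3085 after quantile normalization and 3165 and 3308 after median-ratio scaling, and the list then had 4 higher and 6 lower, and 4 higher and 7 lower. In the 3 comparisons of morulae 0 of 37 were called by limma, with 9 at an unadjusted p under 0.05 in matTKO against WT (4 higher, 5 lower), 4 in matDKO against WT (1 higher, 3 lower) and 6, all lower, in matTKO against matDKO. Of all genes 0.0689% to 1.74% were called in these comparisons.

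Among known upstream factors, Dux, listed as Duxf3, was too low to be tested, at 0.19 TPM or less in every morula library. It had 0.31 to 0.36 RPKM in PRC1-CD against 0.05 to 0.13 RPKM in PRC1-WT libraries, which did not overlap, as for 36.1% of all tested genes. In the knockout set it had 0 to 0.18 RPKM in TKO, 0.09 to 0.12 RPKM in DKO and 0.03 to 0.08 RPKM in WT libraries. The DKO libraries were above all WT libraries at levels too low to be tested, and nothing is read from this order. All of these values are near the floor. Dppa4, a chromatin-binding partner of Dppa2, had 2.75 ± 1.65 RPKM in TKO, 13.1 ± 6.0 RPKM in DKO and 24.5 ± 0.54 RPKM in WT oocytes (SD, n = 3 each). It fell in TKO against WT by 2.87 ± 0.35 on the log2 scale (limma, adjusted p = 0.000124) and in TKO against DKO by 1.93 ± 0.35 (adjusted p = 0.00152), so it was lowest in the TKO group while the Zscan4 sum was lowest in the DKO group. Dppa2 had 75.5 ± 2.9 RPKM in TKO, 106.0 ± 4.6 RPKM in DKO and 102.5 ± 0.65 RPKM in WT oocytes and fell in TKO against WT (-0.44 ± 0.06, adjusted p = 0.000235). In PRC1-CD against PRC1-WT oocytes 1 of 6 tested upstream factors was called, and it was lower, as were 5.61% of all genes. This was Nelfa, a subunit of the negative elongation factor, with 21.7 ± 0.98 RPKM in PRC1-CD against 38.5 ± 10.7 RPKM in PRC1-WT oocytes (-0.77 ± 0.21, adjusted p = 0.0394). Nelfa was also the only one of 5 called in DKO against WT oocytes, where 11.3% of all genes were called lower. It had 24.0 ± 1.1 RPKM in DKO against 28.6 ± 0.94 RPKM in WT oocytes (-0.24 ± 0.07, adjusted p = 0.0252). By limma 2 of the 5 were lower and 0 higher at an unadjusted p under 0.05, and 2 were called lower after median-ratio scaling. Dppa4, not called there as deposited, had 7.71 to 19.6 RPKM in DKO and 23.9 to 24.9 RPKM in WT libraries. These did not overlap, as for 22.1% of all tested genes. In TKO against WT oocytes 1 of the 5 rose and 2 fell, where 31.2% of all genes rose and 20.1% fell. In TKO against DKO oocytes 2 rose and 2 fell, where 26.8% rose and 21.8% fell. Smarca5 had 71.7 ± 2.9 RPKM in TKO, 54.7 ± 1.6 RPKM in DKO and 55.9 ± 2.1 RPKM in WT oocytes. It was higher in TKO than in both (limma, adjusted p = 0.0008 against DKO and 0.00116 against WT). Nelfa rose in TKO against DKO (0.37 ± 0.07, adjusted p = 0.00183). In morulae 0 of 7 were called in each comparison, where 0.0689% to 1.74% of all genes were called, and 0 had an unadjusted p under 0.05.

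Of 23 listed repressors of the 2-cell programme 21 were tested in oocytes. In PRC1-CD oocytes, where 17.3% of all genes rose and 5.61% fell, 0 rose, also at an unadjusted p under 0.05, and 2 fell. These were Chaf1a, a subunit of the chromatin assembly factor, with 50.3 ± 10.8 RPKM in PRC1-CD against 87.9 ± 11.3 RPKM in PRC1-WT oocytes (limma, adjusted p = 0.0264), and the maintenance DNA methyltransferase Dnmt1, with 179 ± 2.6 RPKM against 279 ± 23.8 RPKM (adjusted p = 0.0240). Both were lower in DKO oocytes too, where 3 of 21 fell, near the 11.3% of all genes. Dnmt1 had 216 ± 13.0 RPKM in DKO against 284 ± 6.4 RPKM in WT oocytes and Chaf1a 68.1 ± 6.7 RPKM in DKO against 85.2 ± 3.8 RPKM in WT oocytes, and the third was the deleted Pcgf6. In DKO oocytes 0 rose, where 17.5% of all genes rose, with 2 higher at an unadjusted p under 0.05. Trim28, the corepressor of KRAB zinc finger proteins, had 43.5 ± 7.8 RPKM in TKO, 22.5 ± 3.5 RPKM in DKO and 22.0 ± 2.1 RPKM in WT oocytes, and the H3K9 methyltransferase Setdb1 had 53.7 ± 4.4 RPKM in TKO, 25.9 ± 1.3 RPKM in DKO and 31.0 ± 2.1 RPKM in WT oocytes. Both rose in TKO against WT and against DKO (adjusted p between 1.598e-05 and 0.000555). Suv39h1 instead had 46.4 ± 3.3 RPKM in TKO, 69.3 ± 6.5 RPKM in DKO and 81.1 ± 1.1 RPKM in WT oocytes. It was lower in TKO than in both (limma, adjusted p = 0.00034 against DKO and 3.757e-05 against WT). Mga fell in TKO against DKO (-0.59 ± 0.14, adjusted p = 0.00587). In all, 5 of 21 rose and 2 fell in TKO against WT, where 31.2% of all genes rose and 20.1% fell, and 8 rose and 2 fell in TKO against DKO oocytes, where 26.8% rose and 21.8% fell. After median-ratio scaling 4 rose and 6 fell in TKO against WT.

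Of 29 genes of telomere maintenance and known partners, 26 were tested in oocytes. In PRC1-CD oocytes 1 rose and 3 fell (17.3% and 5.61% of all genes), and in DKO against WT 3 rose and 6 fell (17.5% and 11.3%). In TKO against WT 7 rose and 6 fell (31.2% and 20.1%), near the shares of all genes, and 6 rose and 10 fell after median-ratio scaling. In TKO against DKO 6 rose and 8 fell (26.8% and 21.8%). Pot1b, a shelterin subunit that binds single-stranded telomeric DNA, had 1.53 ± 0.37 RPKM in PRC1-CD against 6.67 ± 0.13 RPKM in PRC1-WT oocytes (-1.61 ± 0.19, adjusted p = 0.00137). It had 4.50 ± 0.11 RPKM in TKO, 7.87 ± 1.56 RPKM in DKO and 11.9 ± 0.24 RPKM in WT oocytes. Smc1b, the meiotic cohesin subunit, had 17.2 ± 0.71 RPKM in PRC1-CD against 6.25 ± 0.70 RPKM in PRC1-WT oocytes (adjusted p = 0.00202) and 14.3 ± 0.66 RPKM in DKO against 7.52 ± 0.68 RPKM in WT oocytes (adjusted p = 0.00017). Pot1b thus fell and Smc1b rose in both PRC1-CD and DKO oocytes, in which the Zscan4 copies lay on opposite sides of their controls. In morulae 0 of 28 were called, with 2 lower at an unadjusted p under 0.05 in each of matTKO and matDKO against WT and 0 in matTKO against matDKO. Of all genes 0.0689% to 1.74% were called in these comparisons.

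Among 30 other SCAN domain genes 20 were tested in the PRC1-CD set and 21 in the knockout set. Zscan10, a zinc finger factor of pluripotent cells, had 9.77 ± 3.78 RPKM in PRC1-CD against 3.53 ± 0.52 RPKM in PRC1-WT oocytes (1.21 ± 0.26, adjusted p = 0.0168). With Zkscan16 it was 1 of 2 that rose there, with 0 that fell (17.3% and 5.61% of all genes). After quantile normalization 1 rose and 1 fell in PRC1-CD, and after median-ratio scaling 1 rose and 0 fell. Zscan10 also rose in TKO oocytes, with 9.56 ± 4.31 RPKM in TKO against 2.36 ± 0.50 RPKM in WT oocytes (adjusted p = 0.00175). In DKO against WT oocytes 1 rose, Zkscan4, and 1 fell, Scand1 (17.5% and 11.3% of all genes). Zkscan4 had 1.12 ± 0.30 RPKM in DKO against 0.447 ± 0.10 RPKM in WT oocytes. Its WT mean was under 1 RPKM, so its rise is partly set by the filter. After quantile normalization 0 rose and 2 fell in DKO, and after median-ratio scaling 1 rose and 3 fell. In TKO oocytes 7 of 21 rose and 3 fell against WT (31.2% and 20.1% of all genes) and 6 rose and 3 fell against DKO (26.8% and 21.8%), near the shares of all genes. After either rescaling 4 rose and 4 fell against WT. In morulae 1 of 22 was called, Zkscan3, with 1.37 ± 0.77 TPM in matTKO against 5.06 ± 2.68 TPM in WT morulae (-1.29 ± 0.24, adjusted p = 0.00711, n = 10 each by limma). Of all 13056 genes, 0.567% were called in that comparison, 1.74% in matDKO against WT and 0.0689% in matTKO against matDKO. None of the 22 was called in the other 2 comparisons, with 3 at an unadjusted p under 0.05 in matDKO against WT and 2 in matTKO against matDKO.

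The annotation lists 81 further genes within 500 kb of the cluster, of which 16 had values and 2 were tested in oocytes. Gm7789 had 11.1 RPKM in TKO and 13.2 RPKM in DKO against 22.7 RPKM in WT oocytes and fell in both (limma, -0.96 ± 0.16, adjusted p = 0.000661 in TKO, and -0.76 ± 0.16, adjusted p = 0.00526 in DKO). Of all tested genes, 20.1% were called lower in TKO and 11.3% in DKO against WT oocytes. In PRC1-CD oocytes 0 of the 2 neighbours were called by limma, and 0 had an unadjusted p under 0.05.

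The genes whose pattern was most like that of the Zscan4 sum were ranked on log2(value + 1). Over the 30 morula libraries the highest Pearson correlations were 0.784 for both Gm21312 and Gm20765, 0.708 for Gm36718, 0.699 for Gm4340 and 0.698 for Gm21818, and the libraries share their group and their many zeros. Gm21312 had 0, 0 and 4.55 TPM in matTKO, 0, 3.62 and 26.7 TPM in matDKO and 0, 8.67 and 38.2 TPM in WT morulae (lowest, median and highest). Gm4340, which is also on the list of 2-cell genes, had 0, 0 and 5.33 TPM in matTKO, 0, 2.49 and 16.5 TPM in matDKO and 0, 1.91 and 36.6 TPM in WT morulae. Both were at 0.25 RPKM or less in the knockout set of oocytes, and in PRC1-CD oocytes Gm4340 had 0.62 and 8.48 RPKM. Over the 9 knockout-set oocyte libraries the highest correlations were 0.984 for Gm33875, 0.981 for Gm36159, 0.975 for Naalad2, 0.973 for Nlrp4e and 0.969 for Gm40224. Nlrp4e, an oocyte gene of the NLRP family, had 28.9 ± 0.53 RPKM in TKO, 9.25 ± 1.33 RPKM in DKO and 43.8 ± 3.02 RPKM in WT oocytes. In the PRC1-CD set it lay on the other side of its control from the Zscan4 sum, with 16.6 ± 5.20 RPKM in PRC1-CD against 45.3 ± 2.81 RPKM in PRC1-WT oocytes (SD, n = 2 each).

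Likeness over the changes of the sum in PRC1-CD, DKO and TKO oocytes, each against its control, was measured as a Euclidean distance over 12424 genes. Cd7, a gene of the immunoglobulin superfamily best known from T cells, was nearest with a distance of 0.80 and log2 changes of 1.73 in PRC1-CD, -1.27 in DKO and -0.47 in TKO oocytes. Its levels were 238 ± 47.7 RPKM in PRC1-CD against 71.0 ± 11.2 RPKM in PRC1-WT oocytes, and 82.8 ± 6.92 RPKM in TKO, 49.2 ± 18.9 RPKM in DKO and 116 ± 22.7 RPKM in WT oocytes. Prl8a2, a placental prolactin-family hormone, followed at 0.84, then Prelid2 at 0.96 and Fam162b and Gm36352 at 0.98. Of these 4, only Fam162b had a TKO change below 0, at -0.39. These genes were picked for their likeness, so their values are a description.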

How the data were processed

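RNA was measured in 43 mouse libraries made with SMART-Seq v4 and Nextera XT, per the labels' protocols; this chemistry keeps no strand, so antisense reads cannot be told apart. The tools named in the submitters' processing notes are featureCounts 1.6.0, RSEM 1.3.1, STAR (2.7.3 and 2.7.6) and Trim Galore 0.6.4, with the builds GRCm38 and mm10 and no tool tied to a table. The authors deposited RPKM values for both oocyte sets. The morula table, titled RPKM, was taken as TPM made by the authors because each deposited library sums to between 999421 and 999922; RPKM libraries sum to between 622628 and 686687. The tables were normalised separately and tested only within a table. Low values show no whole-read steps, so depth is unknown and no counting interval is given; a value of 0 can be a failed estimate.

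From the deposited tables, 27 entries with date-like names were dropped in each oocyte table. Values were analysed as log2(value + 1), which understates changes of low genes, with limma 3.58.1 in R 4.3.3 (lmFit, eBayes with trend) for genes with a mean of at least 1 in a group. Groups of a table shared 1 spread; p-values are two-sided, Benjamini-Hochberg adjusted over all genes of a comparison, and called under 0.05. The script was tested on simulated data. The summed level got no test. Errors are SDs for levels and SEs for changes. Named genes were all copies, up to 4 called genes with the largest change per list, neighbours within 500 kb and the 5 most like genes per measure. Members and lists were chosen with earlier results of these data known. Alternatives covered the pseudocount, filter, scaling, a replicate block, the groups fitted and leaving out each library of the oocyte sets.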

Additional observations from a re-analysis of the deposited data

Results flagged for a closer look

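In groups of 10 morula libraries, 9 of the 17 sets of values examined for a single copy or the sum held a library whose gap to its nearest neighbour, as a share of the group's range, was above the critical value of 0.466; chance gives about 1 in 20 for normally distributed values, a rate that does not apply to sets made mostly of zeros, where 1 library above 0 gives a share of 1.0 by construction. In matTKO morulae Zscan4a (0.58 TPM) and Zscan4c (0.18 TPM) were above 0 in replicate 8 alone and Zscan4b (0.19 TPM) in replicate 2 alone, each with a gap share of 1.0, and Zscan4d in replicate 2 stood at 1.21 TPM against 0.06 TPM in the next library (0.95). In matDKO morulae replicate 5 stood out in Zscan4c, with 5.28 TPM against 0.70 TPM in the next (0.867), and replicate 9 in Zscan4b, with 0.94 TPM against 0.26 TPM (0.723), and in Zscan4f, with 5.81 TPM against 2.48 TPM (0.573). In WT morulae Zscan4a was at 2.30 TPM in replicate 4 against 0.32 TPM in the next (0.861), and Zscan4d at 7.37 TPM in replicate 2 against 1.77 TPM (0.76).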

How the results depend on the processing

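No change of a tested Zscan4 copy or of the sum changed sign under the alternatives run, but the balance of higher and lower calls over all genes did with the scaling. In morulae 43 genes were higher and 184 lower in matDKO against WT, 103 and 152 after quantile normalization and 85 and 147 after median-ratio scaling, and 23 and 51 in matTKO against WT, 60 and 77 after quantile normalization; the list counts under both scalings were added after seeing the data. For PRC1-CD against PRC1-WT oocytes, 3059 genes were called; requiring a mean of 5 left 1664 of fewer genes tested, and leaving out 1 library gave 1238 to 1543 (1543 and 1352 without replicates 1 and 2 of PRC1-CD, 1325 and 1238 without those of PRC1-WT), where the lone library left is assumed to vary like the other group. The summed Zscan4 change there was 1.86, with 1.75 after median-ratio scaling, 1.93 for Zscan4c, Zscan4d and Zscan4f alone, and 1.82 to 1.91 when a library was left out. DKO against WT gave 3701 genes, and 2421 (without WT replicate 3) to 4211 with a library left out. The count of called copies in TKO against WT was 2, and 1 with no filter, where the adjusted p of Zscan4a was 0.0586, 1 with a mean of 5, where 2 copies were tested, and 1 to 3 with a library left out, falling to 1 without WT replicate 2 or WT replicate 3. In TKO against DKO it was 4, 2 with a mean of 5, where 2 were tested, and 4 with any library left out. The summed change in matTKO against WT morulae was -1.43, and -2.92 with a pseudocount of 0.1, which spreads low values by construction. In morulae the numbers of called genes were unsteady, with 227, 74 and 9 called in matDKO against WT, matTKO against WT and matTKO against matDKO. They were 93, 32 and 5 without a filter, and in matTKO against WT 21 with a pseudocount of 0.1, 137 after quantile normalization and 132 with the 2 groups alone; matTKO against matDKO gave 1 with a mean of 5 and 5 with its 2 groups alone. The cause of these shifts was not tested. Whether the same replicate numbers pair the samples could not be decided, since the labels do not say what a number marks. Correlations of same-numbered libraries ran from -0.167 to 0.569, and not every library correlated best with its own number. Above 0.1 were 7 of 10 pairs of matDKO with matTKO morulae and 3 of 10 in each pairing with WT morulae. With the replicate number as a block, 607, 183 and 16 genes were called in these 3 comparisons of morulae, against 227, 74 and 9 without it. The counts of called copies were the same with the block. A sum with the Zscan4 pseudogenes added could not be computed and was not run. Depth is unknown, so low values such as those of Zscan4b and of most morulae carry no stated precision, and reads shared between copies limit every single-copy value.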
